A study of Mus musculus with 8 samples.

Results

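Transcript levels of 8 genes of Schwann cells and cutaneous nerve (Sox10, Mbp, Pmp22, Erbb3, S100b, L1cam, Ngfr and Gpr37) were compared between wild-type skin and skin lacking the glucocorticoid receptor (GR), the steroid-dependent transcription factor that Nr3c1 encodes, in mouse embryos. The genes were chosen by name, with earlier results of these data known. Every probe set that the array annotation assigns to one of these symbols alone was read, which gave 22 of 45037 probe sets and 8 of 18193 genes. A probe set is a group of short oligonucleotides that together measure a transcript, and each gene was represented by its probe set with the highest mean over all arrays.

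Total RNA of dorsal skin was hybridised to 8 single-colour Affymetrix Mouse Genome 430 2.0 arrays. The GR+/+ (wild-type) group held 4 arrays, with the label numbers 4, 6, 28 and 29, and the GR-/- (GR-null) group held 4, numbered 5, 17, 25 and 26. All were B6D2/F1 embryos at embryonic day 18.5, taken by caesarean section and described as littermates, and no number occurs in both groups. The labels give no details of the targeted allele, of the litters, or of whether every array had its own embryo, so p-values measure the spread between these samples, which may be technical. The receptor was missing from the whole embryo by the labels' genotype, so skin cells, nerve and other organs shared the genotype. In whole skin, fewer cells of a type and less RNA per cell cannot be told apart.

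Schwann cells are the glia of peripheral nerves. They arise from the neural crest, depend on neuregulin from axons acting through ErbB3, and either wrap a large axon in myelin or ensheathe several small ones. In skin they accompany sensory and autonomic fibres, and melanocytes share their origin and several of their genes. The cell bodies of cutaneous neurons lie in ganglia outside the skin.

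Arrays were checked before the comparison. Nr3c1 was lower in all GR-null than in all wild-type arrays at 3 of its 6 probe sets, with log2 fold changes of -0.84, -1.86 and -2.70 at its 3 brightest. Its 3 dimmer probe sets had the opposite sign, at 0.27, 0.04 and 0.35, with groups that overlapped. GR-null 17 stood apart from its group: its score on the first principal component was -7.96, against -42.3 to -13.6 in the wild-type arrays and positive scores of up to 61.3 in the rest of its group. Skeletal muscle markers averaged 11.04 to 11.14 log2 in the wild-type group. The GR-null arrays other than 17 averaged 10.15 to 10.40 for them, and GR-null 17 averaged 11.02. Wild-type 6 and GR-null 17 lacked Y-linked signal, so each group held 1 such array. Keratinocyte and dermal fibroblast markers averaged 11.99 to 12.50 and 12.70 to 12.96 log2 over all arrays, while neuronal transcripts averaged 4.99 to 5.16, below the array medians of 6.47 to 6.52.

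In GR-null skin 1 of the 8 genes passed the threshold, Gpr37, which rose 2.94-fold. The other 7 were not past it: Erbb3 and Mbp leaned higher and Sox10, Pmp22, S100b, L1cam and Ngfr lower at their brightest probe sets. The threshold was an adjusted p below 0.05 by limma, a linear model that shares variance across probe sets, with Benjamini-Hochberg adjustment over all genes. Of all genes, 2.96% passed it, 1.4% higher and 1.56% lower. Of the 22 probe sets of the 8 genes, 1 passed over all probe sets, where 3.85% of all probe sets did. Before adjustment 6 of the 8 had a p below 0.05, 3 of them higher and 3 lower, where 21.6% of all genes did. With the mean of the skeletal muscle markers as a covariate that number was 1, where 11% of all genes had such a p. This mean was lower in every GR-null than in every wild-type array. A fit with it therefore cannot separate muscle content from genotype, here or for the genes below. The groups did not overlap in 3 of the 8 genes (Gpr37, Pmp22 and S100b), against 13% of all genes, 6.69% higher and 6.3% lower in GR-null skin. The median log2 fold change of the 8 was -0.22, and that of all genes was -0.0045.

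**Figure D1:**
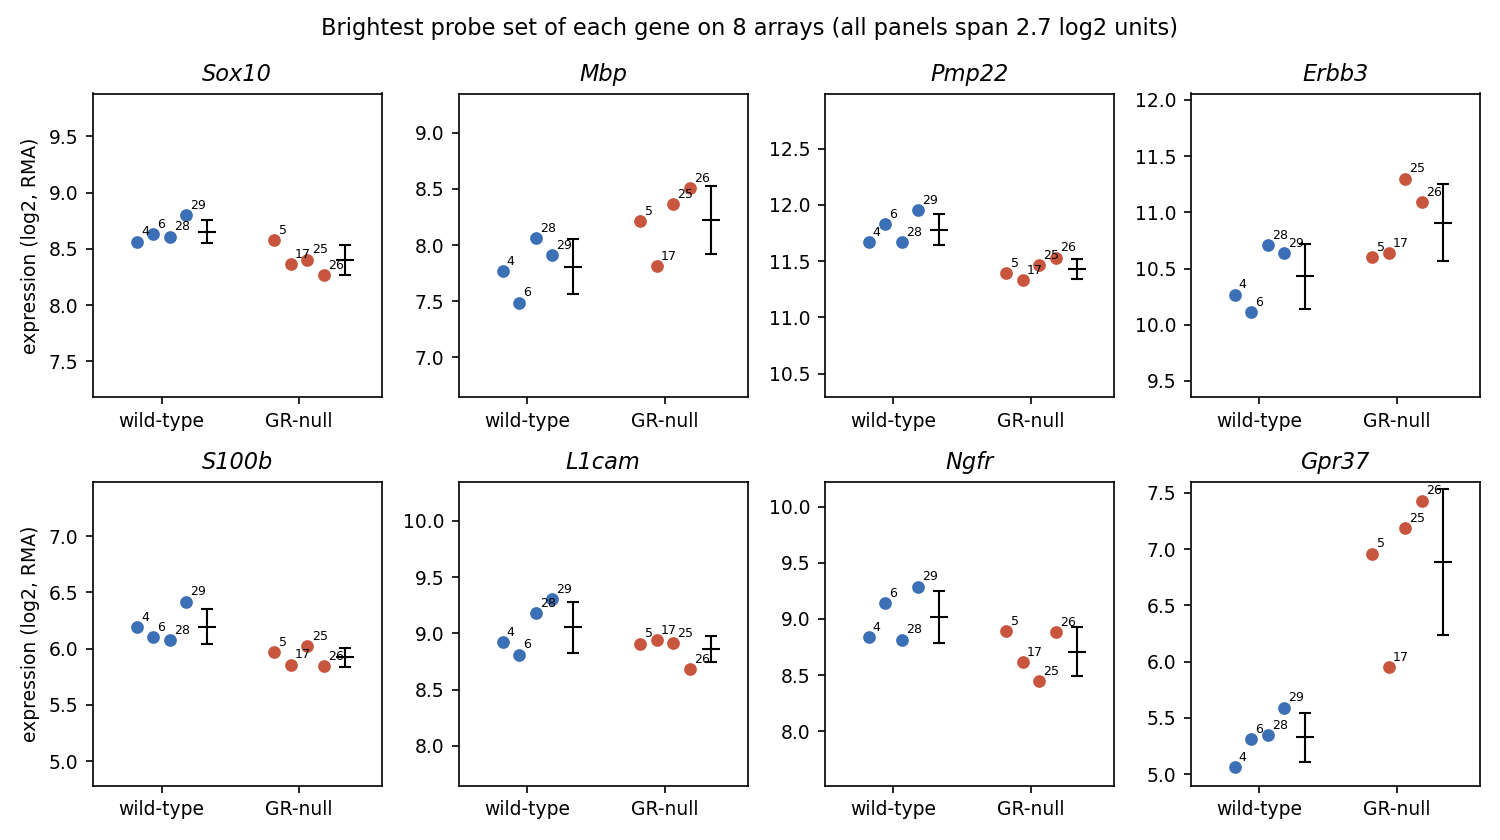
Expression (log2) of each gene at its brightest probe set on the 4 wild-type (blue) and 4 GR-null (red) arrays, with label numbers beside the points and the mean ± SD beside each group. Gpr37 lay between 5.06 and 5.59 in wild-type and between 5.95 and 7.43 in GR-null arrays, the widest separation of the 8 genes.

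Gpr37 encodes an orphan G protein-coupled receptor known from myelinating glia and as a substrate of the ubiquitin ligase parkin. It has 1 probe set on the array. On wild-type arrays 4, 6, 28 and 29 its level was 5.06, 5.31, 5.35 and 5.59 log2. On GR-null arrays 5, 17, 25 and 26 it was 6.96, 5.95, 7.19 and 7.43. All GR-null arrays lay above all wild-type arrays, with GR-null 17 the nearest to them. The wild-type values were below the array medians, where RMA, the method that made these values, compresses differences. The group means were 5.33 ± 0.22 and 6.88 ± 0.65 (SD, n = 4 each). Gpr37 rose by 1.55 ± 0.28 log2 (SE, 95% interval 0.91 to 2.20, limma adjusted p = 0.0303). By an exact two-sided permutation test over arrays p was 0.0286, the smallest that 4 against 4 arrays can give. Any gene whose groups do not overlap has this p, as 13% of all genes did, so it restates the separation above. Gpr37 ranked 8 by size among the 255 genes that rose, and 0.11% of all genes had a fold change as high.

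The call for Gpr37 was lost in 7 of the 8 fits that left out 1 array. In those 7 fits 79 to 321 of all genes passed, against 539 with all arrays. With GR-null 17 left out, where 9.01% of all genes passed, Gpr37 rose by 1.87 (limma adjusted p = 0.00132). Without any other single array it remained higher by 1.37 to 1.64 log2 but missed the threshold, with limma adjusted p of 0.0655, 0.0572, 0.0796 and 0.071 for wild-type 4, 6, 28 and 29 and of 0.0758, 0.103 and 0.0717 for GR-null 5, 25 and 26. Once the muscle mean entered as a covariate, the difference was 0.73 ± 0.32 (limma adjusted p = 0.461). Only 90 of all genes passed in that fit, whose covariate itself followed genotype.

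Other cell types moved with the groups as well. Of 27 muscle markers 6 fell and 0 rose, and 16 were lower and 0 higher at an unadjusted p below 0.05 by limma. The log2 of their summed level was 17.16 to 17.24 for wild-type and 16.52 to 17.17 for GR-null skin. GR-null 17 held the highest muscle and the lowest Gpr37 level of its group. Of 12 melanocyte markers 2 rose. Tyr, the rate-limiting enzyme of melanin synthesis, rose by 1.04 ± 0.12 log2 (limma adjusted p = 0.00688). The melanosome matrix gene Pmel rose by 0.85 ± 0.11 (limma adjusted p = 0.0103). At an unadjusted p below 0.05 by limma 5 of the 12 were higher and 1, Mc1r, was lower (-0.55). Of the 12 differences 10 were positive and 2 negative, with a median of 0.22. The summed level of the melanocyte markers was 11.89 to 12.19 log2 for wild-type and 12.32 to 12.95 for GR-null skin, with the highest value on array 17. Comparisons of Gpr37 with muscle or melanocyte level inside the GR-null group rest on this 1 array. The part of muscle and melanocyte content in the Gpr37 difference was not tested, as the muscle covariate itself followed genotype.

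**Figure D2:**
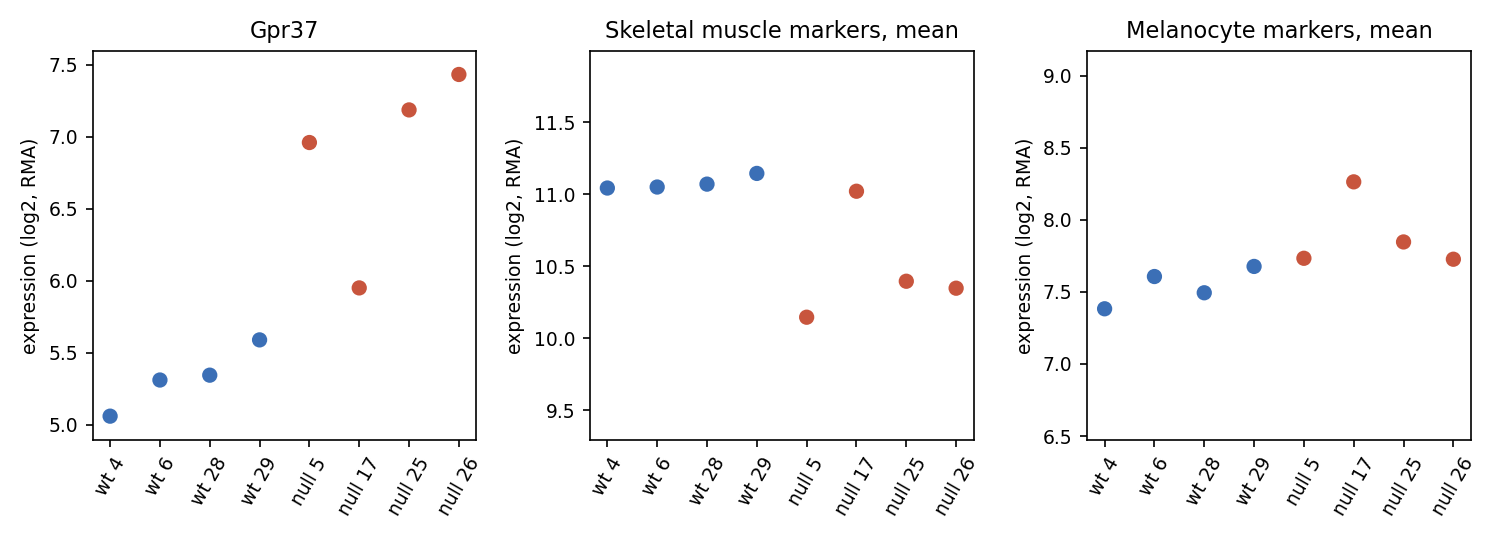
Expression (log2) on each array of Gpr37 (left), the mean of 27 skeletal muscle markers (middle) and the mean of 12 melanocyte markers (right), wild-type in blue and GR-null in red. GR-null 17 read 5.95 for Gpr37, 11.02 for muscle and 8.26 for melanocyte markers, against 6.96 to 7.43, 10.15 to 10.40 and 7.73 to 7.85 in the other GR-null arrays.

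For Gpr37 the promoter is shown because it is the member that passed the threshold in embryos lacking a DNA-binding receptor. The stretch is the 250 bases before the RefSeq start of the gene on assembly GRCm38.p6, chr6:25689981-25690230, minus strand, printed 5′ to 3′. Capitals mark a GC box (GGGCGG on either strand), here on the strand opposite to the gene and 223 to 218 bases before the start.

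Gpr37: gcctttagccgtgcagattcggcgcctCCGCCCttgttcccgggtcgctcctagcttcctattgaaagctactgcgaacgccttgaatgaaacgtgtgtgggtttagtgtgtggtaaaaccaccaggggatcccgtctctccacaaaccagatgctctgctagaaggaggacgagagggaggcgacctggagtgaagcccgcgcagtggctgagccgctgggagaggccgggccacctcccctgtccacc

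The stretch was 60.8% G and C, with 16 CpG dinucleotides. It held no match to the core of the glucocorticoid response element, searched as GNACA and TGTNC with 3 bases of any kind between them, nor to the single half-site AGAACA. On both strands, 0.387% and 16.1% of 32851 such windows held them. The windows of a single chromosome were left out of the search, so these shares do not cover the whole genome. RefSeq windows were used for 5 of the 8 genes (Gpr37, L1cam, Ngfr, Pmp22 and S100b), 9 windows in all. Sox10, Mbp and Erbb3 had no window in this search, so nothing is said of their promoters. None of the 9 held either motif. None held the SOX site AACAAT, found in 9.42% of all windows. A GC box stood in 6 of the 9, in windows of Gpr37, L1cam, Ngfr and Pmp22, against 32.7% of all windows. Windows of the same gene were counted separately, so 6 of 9 is not a share of genes. A motif is a match of letters, and its absence says nothing of binding elsewhere.

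Sox10, the transcription factor that specifies and maintains Schwann cells and also acts in melanocytes, was not past the threshold. Its wild-type levels were 8.57, 8.63, 8.61 and 8.80 log2 and its GR-null levels 8.58, 8.36, 8.40 and 8.26, in the order of label numbers used for Gpr37. Of the GR-null arrays 3 lay below the wild-type range, and GR-null 5 lay at its lower edge. The log2 fold change was -0.25 ± 0.09 (limma adjusted p = 0.158). Its other probe sets gave -0.15 and 0.06.

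The receptor Erbb3, which takes up the neuregulin signal together with ErbB2, read 10.27, 10.11, 10.71 and 10.64 in wild-type and 10.60, 10.64, 11.30 and 11.09 in GR-null arrays. The groups overlapped, with GR-null 25 and 26 above all wild-type arrays. The log2 fold change was 0.48 ± 0.19 (limma adjusted p = 0.192) and 0.46 at its dimmer probe set. Erbb3 is also made by keratinocytes and melanocytes. Of 14 other genes of neuregulin and ErbB signalling, limma put 0 past the threshold, and 3 were higher and 1 lower at an unadjusted p below 0.05. The smallest p belonged to Pik3r1, a regulatory subunit of PI3-kinase (-0.32 ± 0.08, adjusted p = 0.0742), and Adam17, a protease that sheds ErbB ligands (0.25 ± 0.08, adjusted p = 0.107). When each gene was averaged over its probe sets, Pik3r1 gave -0.0067 (adjusted p = 0.991) and Adam17 was past the threshold at 0.73 (adjusted p = 0.0262). The ErbB partners Erbb2 and Egfr gave 0.40 and 0.34 (adjusted p of 0.152 and 0.138), and the brightest of the list, the protease Adam10, gave 0.11. Neuregulin 1 itself (Nrg1) had a log2 fold change of 0.0081, at a level of 3.92 log2 where little signal can be told from background.

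Among the myelin genes, Pmp22, a membrane protein of compact myelin that fibroblasts and epithelia also make, came closest to the threshold. The wild-type arrays read 11.67, 11.83, 11.67 and 11.95 log2, and the GR-null arrays 11.40, 11.33, 11.46 and 11.53. Every GR-null array lay below every wild-type array. The log2 fold change was -0.35 ± 0.09 (95% interval -0.55 to -0.15, limma adjusted p = 0.069).

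Mbp, which encodes myelin basic protein and, from an upstream start, the golli proteins found outside myelin, gave opposite signs at different probe sets. At the brightest, 1425264_s_at, it read 7.77, 7.49, 8.06 and 7.91 in wild-type and 8.22, 7.81, 8.36 and 8.51 in GR-null arrays. The 3 GR-null arrays other than 17 were above all wild-type arrays, and the log2 fold change was 0.42 ± 0.17 (limma adjusted p = 0.196). At the next, 1433532_a_at, it read 8.11, 8.12, 8.12 and 9.05 in wild-type and 7.39, 7.92, 6.80 and 6.86 in GR-null arrays. Here every GR-null array lay below every wild-type array, with a log2 fold change of -1.11 ± 0.29 (limma adjusted p = 0.068 over all probe sets).

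The 8 probe sets of Mbp fell into those with a positive difference (1425264_s_at, 1425263_a_at and 1451961_a_at, at 0.42, 0.25 and 0.17 log2) and those with a negative one (1433532_a_at, 1436201_x_at, 1456228_x_at, 1419646_a_at and 1454651_x_at, at -1.11, -0.71, -1.11, -0.49 and -0.85). On all 5 of the latter, wild-type 29 was the highest wild-type array and GR-null 17 the highest GR-null array. None of the 8 passed the threshold over all probe sets. Within an array, 1425264_s_at minus 1433532_a_at was -1.14 to -0.06 in wild-type and -0.11 to 1.64 in GR-null arrays, with only GR-null 17 inside the wild-type range. The mean difference of 1.52 log2 had p = 0.0571 by an exact two-sided permutation test, a pair chosen after the values were seen. Without GR-null 17, where 10.8% of all probe sets passed, limma put 4 of the 8 past the threshold: 1425264_s_at higher at 0.55 (adjusted p = 0.0437), and 1433532_a_at, 1456228_x_at and 1454651_x_at lower at -1.33, -1.42 and -1.03 (adjusted p of 0.0187, 0.0154 and 0.0163). With the muscle mean as a covariate the brightest gave 0.06 (adjusted p = 0.958). Which of the 8 read golli or myelin transcripts was not analysed here. Names ending in _a_at, _s_at or _x_at mark probe sets that can take up several transcripts.

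**Figure D3:**
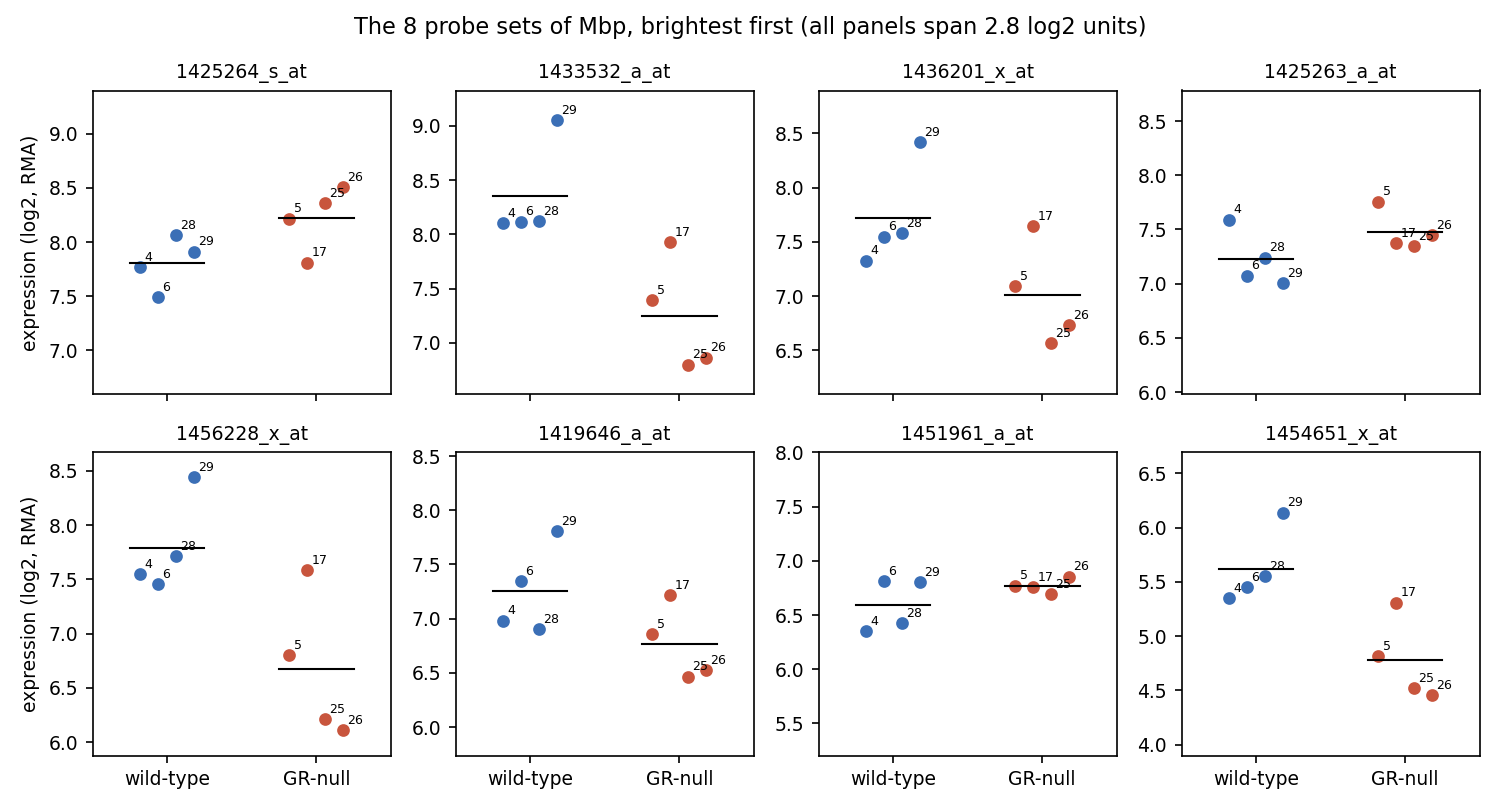
Expression (log2) at the 8 probe sets of Mbp, brightest first, on the wild-type (blue) and GR-null (red) arrays, with label numbers beside the points and a line at each group mean. At 5 probe sets the GR-null mean was lower, with GR-null 17 the highest of its group, and at 3 it was higher.

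Of 16 other measured genes of the myelin list, limma put 0 past the threshold, and 1 was higher and 2 were lower at an unadjusted p below 0.05. Cnp, an enzyme of non-compact myelin, had the smallest p, at -0.59 ± 0.19 log2 (limma adjusted p = 0.115), followed by the adhesion molecule Cadm4 at -0.46 ± 0.16 (adjusted p = 0.14). Cnp read 9.91 to 10.34 in wild-type arrays, 10.05 in GR-null 17 and 9.13 to 9.59 in the other GR-null arrays. Without GR-null 17, where 9.01% of all genes passed, Cnp was lower by 0.77 (limma adjusted p = 0.0167). With the muscle covariate Cnp gave -0.12 (adjusted p = 0.916) and Cadm4 -0.23 (adjusted p = 0.804). Mag, the myelin-associated glycoprotein, had a log2 fold change of -0.18. Among 12 Schwann lineage transcription factors limma put 0 past the threshold, with 3 higher and 2 lower at an unadjusted p below 0.05. The brightest of them were Nab1, a co-regulator of Egr2, at 0.34 log2, and Zeb2, at -0.30. Egr2, the factor that switches on myelin genes, gave 0.63 ± 0.19 (adjusted p = 0.1) and Nfatc4, a calcium-regulated factor, gave -0.32 ± 0.10 (adjusted p = 0.105).

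S100b, a calcium-binding protein used as a Schwann cell marker and also made by melanocytes and adipocytes, was low on these arrays. Its wild-type levels were 6.19, 6.10, 6.07 and 6.42 and its GR-null levels 5.97, 5.86, 6.02 and 5.85. The groups did not overlap, though their nearest arrays lay close together. Adipocyte markers averaged 7.03 to 8.49 log2 in wild-type and 7.15 to 8.33 in GR-null skin, and limma put 0 of 10 past the threshold, with 0 higher and 1 lower at an unadjusted p below 0.05. The log2 fold change was -0.27 ± 0.09 (limma adjusted p = 0.142), and -0.31 at the second probe set, where the groups overlapped. Of 14 measured genes of non-myelinating and immature Schwann cells, 1 fell and 0 rose, 11 had negative and 3 positive differences, and the median was -0.23. The brightest of the list, Matn2 (matrilin 2) and Ncam1 (neural cell adhesion molecule), gave -0.50 and -0.37 (limma adjusted p of 0.154 and 0.141). For both, GR-null 17 lay inside the wild-type range (10.37 and 10.11 log2) and the other GR-null arrays lay below it. The gene that fell was Cdh2, N-cadherin, which joins glia to axons and is also made by muscle. It read 8.13, 7.79, 7.98 and 8.44 in wild-type and 7.18, 7.60, 7.02 and 7.11 in GR-null arrays, and it fell by 0.86 ± 0.16 log2 (limma adjusted p = 0.0337). The groups did not overlap, and GR-null 17 was again the nearest to wild-type. Cdh2 missed the threshold in 6 of the 8 fits that left out 1 array (adjusted p from 0.069 to 0.112) and with the muscle covariate (-0.47, adjusted p = 0.498), and its other probe set gave -0.20.

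Ngfr, the low-affinity neurotrophin receptor p75, marks immature and non-myelinating Schwann cells and is present in hair follicle mesenchyme too. It read 8.84, 9.14, 8.82 and 9.29 in wild-type and 8.89, 8.62, 8.45 and 8.89 in GR-null arrays. The groups overlapped, and the log2 fold change was -0.31 ± 0.14 (limma adjusted p = 0.245). Its 2 dimmer probe sets had the opposite sign. The dimmest, below the array medians, gave 0.46 ± 0.13 with groups that did not overlap (adjusted p = 0.0746 over all probe sets). Of 14 neurotrophin and GDNF-family genes limma put 0 past the threshold, with 4 higher and 1 lower at an unadjusted p below 0.05. Those with the smallest p were Gfra1, the co-receptor for GDNF, at 0.41 ± 0.11 (adjusted p = 0.0725) and Sort1, the co-receptor of p75, at 0.36 ± 0.10 (adjusted p = 0.0777). Both lay higher in all GR-null than in all wild-type arrays. With the mean of all its probe sets Gfra1 was past the threshold, at 0.81 (adjusted p = 0.0123).

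L1cam, an adhesion molecule of axons and non-myelinating Schwann cells, read 8.92, 8.81, 9.18 and 9.31 in wild-type and 8.91, 8.94, 8.91 and 8.68 in GR-null arrays. The ranges overlapped and the log2 fold change was -0.19 (95% interval -0.47 to 0.08, limma adjusted p = 0.402). Its dim second probe set gave 0.48 ± 0.15 (adjusted p = 0.107 over all probe sets). In the list of L1 family and axon-glia adhesion genes, 1 of 14 rose and 0 fell. The L1 relative Chl1 (close homolog of L1) read 9.56, 9.39, 9.77 and 9.76 in wild-type and 10.49, 10.12, 10.55 and 10.26 in GR-null arrays. All GR-null arrays were higher. Chl1 rose by 0.74 ± 0.12 log2 (1.67-fold, limma adjusted p = 0.0232), with the same sign at its 3 other probe sets, none of which passed. The brightest of the list, the semaphorin receptor Nrp1 and the ankyrin Ank3, gave -0.10 and -0.34. Chl1 missed the threshold in 6 of the 8 fits without 1 array, with adjusted p up to 0.0836, and with the muscle covariate (0.52, adjusted p = 0.376).

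**Figure D4:**
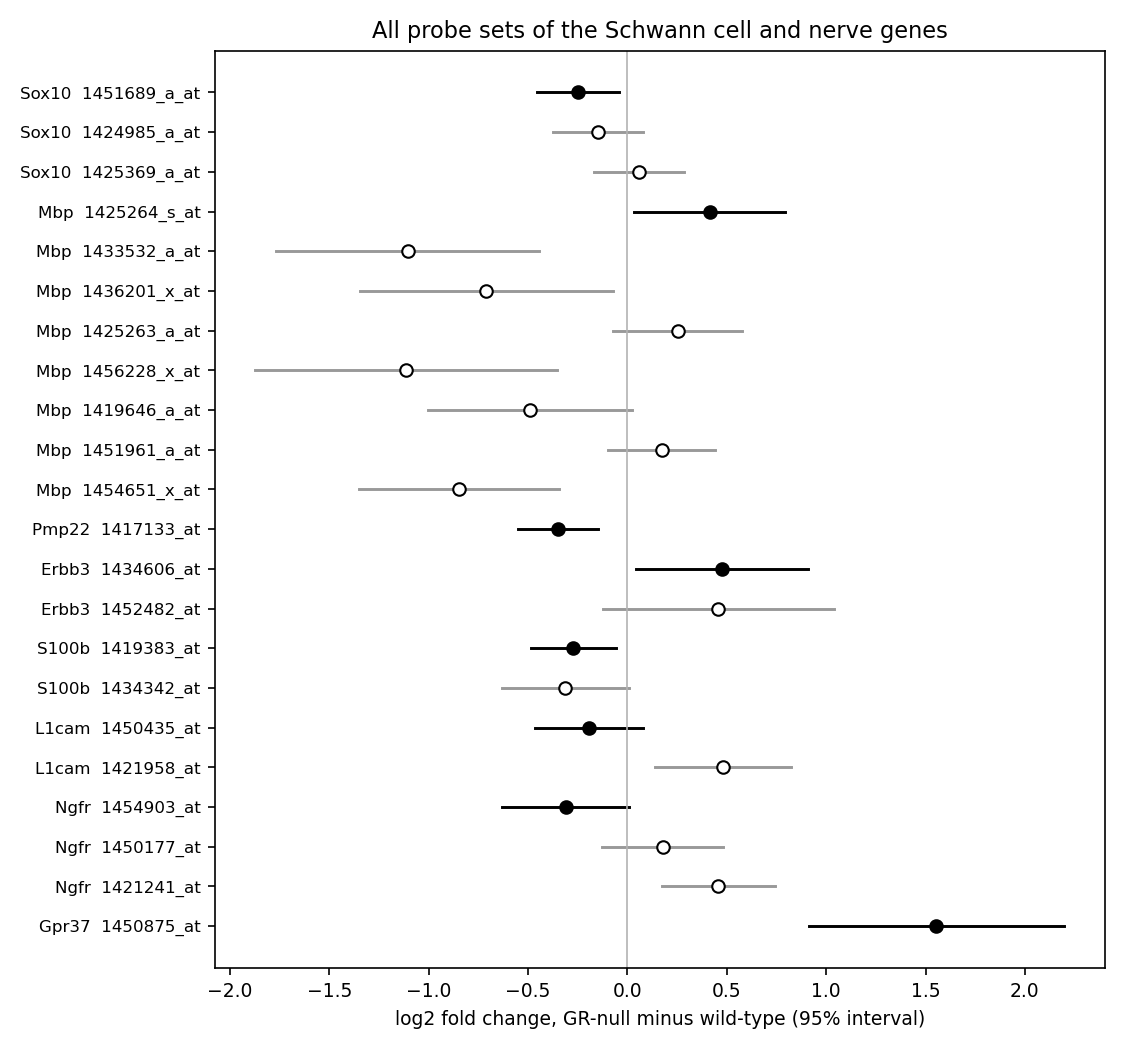
Log2 fold change (GR-null minus wild-type) with its 95% interval at all 22 probe sets of the 8 genes; filled points are the brightest probe set of each gene. Mbp, L1cam, Ngfr and Sox10 have probe sets on both sides of 0, and Gpr37 at 1.55 lies furthest from it.

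Transcripts of sensory neurons and axons gave no call. Of 17 measured, limma put 0 past the threshold, and 0 were higher and 2 lower at an unadjusted p below 0.05. The smallest p belonged to Isl1, a sensory neuron transcription factor (-0.28 ± 0.12, adjusted p = 0.21), and Gap43, a growth-associated protein of axons and immature Schwann cells (-0.40 ± 0.17, adjusted p = 0.22). The neurofilament Nefl averaged 3.91 and the synaptic Snap25 3.57 log2, near the lower end of the scale. Of 6 genes linked to Gpr37 signalling, 1 rose, the inhibitory G protein subunit Gnai3, by 0.63 ± 0.14 log2 (limma adjusted p = 0.0451), and 0 fell. It read 11.74, 11.57, 11.71 and 11.46 on wild-type and 12.34, 11.85, 12.43 and 12.37 on GR-null arrays, with no overlap. Its dimmer probe set gave 0.35 log2 with groups that overlapped (limma adjusted p = 0.505 over all probe sets). Of the 6 genes, limma put 1 higher and 2 lower at an unadjusted p below 0.05, where 21.6% of all genes had such a p. Gnai3 lost its call in 11 of 18 alternatives, among them 7 of the 8 fits without 1 array (adjusted p from 0.0716 to 0.139), keeping it without GR-null 17 (0.00492), and lost it with the muscle covariate (0.23, adjusted p = 0.633). Its relative Gnai1 differed by -0.44 log2 (limma adjusted p = 0.0531). Psap, which encodes prosaposin, a proposed ligand of Gpr37, was at -0.05 (adjusted p = 0.831).

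Over all 8 related lists, 2 of 106 genes rose and 1 fell, or 2.83%, a share near the 2.96% of all genes. Positive and negative differences were equal in number, 53 each, with a median of -0.0035.

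**Figure D5:**
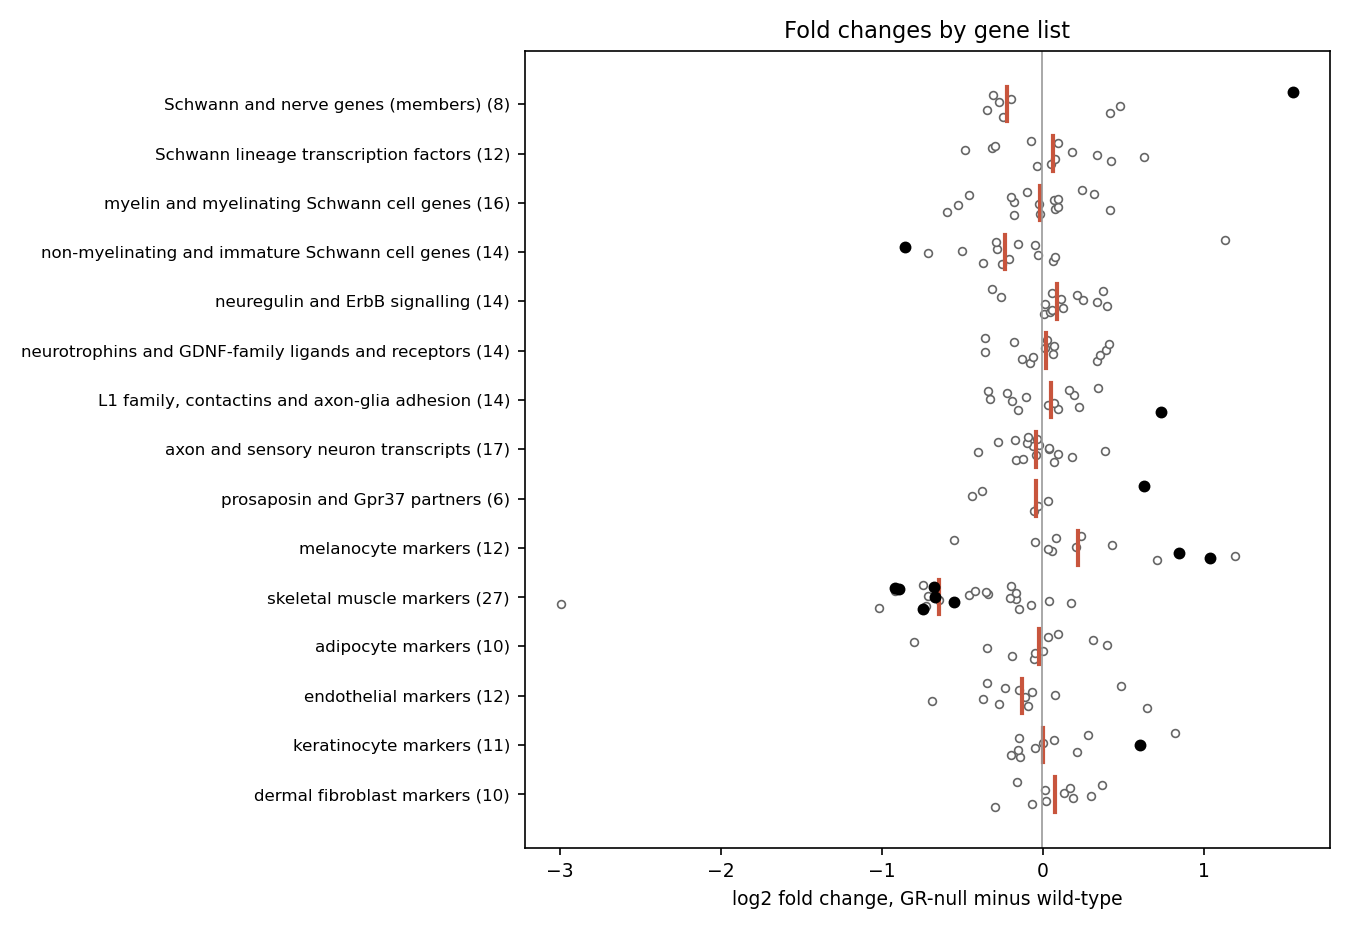
Log2 fold change (GR-null minus wild-type) of each gene at its brightest probe set, by list, with the number measured in parentheses. Filled points passed the threshold, red bars are list medians and the grey line is the median of all genes; muscle markers have the lowest median at -0.64.

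The genes whose profiles over the 8 arrays were most like those of the members were found by the root mean square difference between values centred on each gene's mean. For Gpr37 these were Eaf2, an elongation factor partner, at 0.20 log2, Faah, which degrades anandamide, at 0.28 and the steroid hydroxylase Cyp17a1 at 0.30. Eaf2 rose by 1.62 (limma adjusted p = 0.0109) and Cyp17a1 by 1.28 (adjusted p = 0.0382), while Faah was at 1.15 (adjusted p = 0.0589). These genes were picked for profiles like that of Gpr37 on the same arrays, so a similar difference follows from the choice. For Erbb3 the closest was the kinase gene Tec (0.07), for Mbp at its brightest probe set the epithelial gene Shroom3 (0.08), and for Ngfr the chondroitin-polymerising gene Chpf (0.10). None of the 8 members was among the 3 closest genes of another of these 4. The remaining 4 members varied by an SD under 0.25 log2 over the arrays and their closest genes are not named.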

How the data were processed

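Skin RNA of mouse embryos was measured on 8 arrays, grouped by the genotype in the labels. The deposited values are log2 expression per probe set, made with RMA per the submitters' processing notes. In general RMA corrects for background, normalizes arrays by quantiles and summarises the probes of a set, and near the background it understates differences. The version used and any filter were not given in the sources here. Of 45101 probe sets, 64 controls were left out. Of the rest, 34945 carried 1 gene symbol, 932 several and 9160 none listed. Identifiers of 18032 of 18193 genes, and of all 8 members, were found in RefSeq (GRCm38.p6). Precision is limited by the number of arrays.

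Genotype was the single term of a model fitted to every probe set with limma 3.58.1 in R 4.3.3 (lmFit, eBayes, two-sided), read per gene at the brightest probe set. P-values were adjusted by Benjamini-Hochberg over all genes, or over all probe sets where so stated, with a threshold of 0.05. Differences have the wild-type mean subtracted from the GR-null mean. The procedure was tested on simulated data. Members, lists and settings were chosen with earlier results of these data known. All members were named; from each related list up to 4 genes past the threshold, or the 2 with the smallest p. The brightest 2 of each list were also eligible. Others (Nrg1, Mag, Nefl, Snap25, Gnai1, Erbb2, Egfr) were named after their values were seen. Up to 20 other settings were tried.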

Additional observations from a re-analysis of the deposited data

Results flagged for a closer look

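In 5 of 74 sets of 4 arrays examined, 1 array lay far from the other 3 by Dixon's criterion, where chance gives about 3.7. Wild-type 29 read 9.05 log2 for Mbp at 1433532_a_at, against 8.11 to 8.12 in the other wild-type arrays. For L1cam, GR-null 26 read 8.68 at 1450435_at, against 8.91 to 8.94 in the rest of its group, and GR-null 17 read 4.63 at 1421958_at, against 5.23 to 5.32. Wild-type 6 read 9.48 for Sort1, against 9.72 to 9.76. GR-null 17 read 11.85 for Gnai3, against 12.34 to 12.43.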

How the results depend on the processing

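No paired analysis was possible because the groups share no label number. By limma, the count of members past the threshold (1) was 2 with array quality weights or the mean of all probe sets. It was 0 above the median level (which removes Gpr37 and S100b), with the muscle covariate and at 0.01. There 4, 1 and 6 members had an unadjusted p below 0.05 by limma, as did 2999, 2008 and 3936 of all genes tested. Without 1 array the count was 0 to 2, and 4 to 7 members and 2865 to 4712 of all genes had such a p. Of member probe sets (1 past it), 7 passed with weights, 0 above the median level, with the muscle covariate and at 0.01 (7, 1 and 12 at an unadjusted p below 0.05), and 0 to 7 without 1 array. Without GR-null 17 these 7 were 4 of Mbp and 1 each of L1cam, Ngfr and Gpr37, and 10.8% of all probe sets passed. In the main fit 21.9% of all probe sets had an unadjusted p below 0.05 by limma. The count over all genes (539) was 1944 with weights, 90 with the muscle covariate, 884 with probe set means, 46 at 0.01, 297 with at least 1.5-fold and 79 to 1640 without 1 array. Of related genes (3), 13 passed with weights, 1 with the muscle covariate, 7 with probe set means, 0 at 0.01 (29 at an unadjusted p below 0.05) and 0 to 12 without 1 array.

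Gpr37 kept its direction in all 17 alternatives and its call in 9 (0.73 with the muscle covariate, 1.37 to 1.87 without 1 array). Mbp turned to -0.43 with probe set means and to -1.11 without _x_at and _s_at probe sets, since other probe sets are then read, and lay at 0.31 to 0.55 without 1 array and at 0.06 with the muscle covariate. With probe set means L1cam turned to 0.14 and Ngfr to 0.11, and Nfatc4 turned to 0.015 without _x_at and _s_at probe sets. Pmp22 passed with weights (-0.33, adjusted p = 0.0411) and in the fit of probe set means (-0.35, adjusted p = 0.0489). L1cam was at -0.10 with the muscle covariate and -0.11 without wild-type 29, and Sox10 at -0.11 with probe set means. With the muscle covariate Egr2, Gap43 and Isl1 were at 0.97, -0.67 and -0.09. With probe set means Cdh2, Chl1, Cnp, Isl1 and Nfatc4 were at -0.53, 0.45, -0.30, -0.11 and -0.04, the first pair still past the threshold. Egr2, Cnp, Pik3r1, Adam17, Gfra1 and Sort1 each passed it in 1 or 2 of 18 alternatives. Sox10, Erbb3 and S100b kept direction and side of the threshold throughout. The Y-linked covariate, the block for label numbers below 10, a further quantile normalization and other variance priors changed no member's call. Other causes were not tested. GR-null 17 had the lowest array weight, 0.47.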
